A study of Mus musculus with 6 samples.

Results

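The 10 genes described here encode the proteins that decide whether a cell leaves G1: the D-cyclins (Ccnd1, Ccnd2 and Ccnd3), their kinases (Cdk4 and Cdk6), the INK4 inhibitors p18 (Cdkn2c) and p19 (Cdkn2d), and the Cip/Kip inhibitors p21 (Cdkn1a), p27 (Cdkn1b) and p57 (Cdkn1c). They were read in the 2 cell populations sorted from mouse calvarial suture, through array features whose only gene symbol is one of these names, taking for each gene the feature with the highest mean over all 6 samples. This gave 9 of the 10 genes, among 19938 genes tested. The 1 feature of Cdkn1a also carries a second symbol, so Cdkn1a, the classical p53-induced inhibitor, has no value here.

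All mice carried the Axin2rtTA and TRE-H2BGFP transgenes on a mixed C57BL/6J, CD-1 and B6CBAF2 background, in which the Axin2 locus drives a doxycycline-dependent activator that switches on a nuclear GFP. They received doxycycline on postnatal days 25 to 28, and suture cells were taken at postnatal day 28. Cells from the same treated mice were sorted on GFP into an Axin2+/GFP+ population (n = 3 samples) and an Axin2-/GFP- population (n = 3 samples), and each sample pooled 6 to 8 mice. The reporter is a histone-GFP fusion, a stable protein that is diluted when a cell divides, so the gate reads the time of doxycycline as well as the moment of the sort. Axin2 itself had log2 array values of 2.89, 2.54 and 3.07 in Axin2+/GFP+ cells, against 2.18, 2.27 and 2.38 in Axin2-/GFP- cells, a difference of 0.55 that was not called (limma adjusted p = 0.080). All 6 values lay at the level of olfactory and vomeronasal receptor genes, a measure of low signal: 7.04% of these were at least as bright in Axin2+/GFP+ cells and 12.3% in Axin2-/GFP- cells, and they changed by a median of 0.30, so the array does not check the sort through Axin2.

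In a cell that is told to divide, D-cyclins accumulate, bind Cdk4 or Cdk6 and start the phosphorylation of the retinoblastoma protein Rb, which frees the E2F factors that switch on the genes of S phase. INK4 proteins bind Cdk4 and Cdk6 directly and keep the cyclins out. Cip/Kip proteins bind cyclin-kinase complexes and block Cdk2, while p27 and p21 also help D-cyclins and Cdk4 to assemble. Quiescent tissue stem cells are known for using p27 and p57 to stay in G0, and p57 marks quiescent haematopoietic stem cells. Much of this control acts on protein stability, which arrays of RNA do not see.

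Of the 4 measured genes that were lower in Axin2+/GFP+ cells, 3 have a promoter entry in RefSeq (GRCm38.p6), and these sequences are shown because they hold the motifs counted in this paragraph. Each runs 5′ to 3′ over 250 bases before and 50 bases after a transcript start. Capitals mark the E-box CACGTG, the letters read by Myc and its relatives, in Cdk4 and Cdk6, and the CCAAT box (CCAAT or, on the other strand, ATTGG) and the Sp1 letters GGGCGG in Cdkn1b.
Cdk4, chr10:127063285-127063584, plus strand: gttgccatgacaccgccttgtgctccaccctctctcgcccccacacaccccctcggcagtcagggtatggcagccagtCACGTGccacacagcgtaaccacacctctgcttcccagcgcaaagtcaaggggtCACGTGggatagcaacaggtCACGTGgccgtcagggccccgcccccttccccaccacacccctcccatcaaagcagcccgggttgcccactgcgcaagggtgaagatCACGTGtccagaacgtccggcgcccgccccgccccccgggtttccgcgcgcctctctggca
Cdk6, chr5:3343643-3343942, plus strand: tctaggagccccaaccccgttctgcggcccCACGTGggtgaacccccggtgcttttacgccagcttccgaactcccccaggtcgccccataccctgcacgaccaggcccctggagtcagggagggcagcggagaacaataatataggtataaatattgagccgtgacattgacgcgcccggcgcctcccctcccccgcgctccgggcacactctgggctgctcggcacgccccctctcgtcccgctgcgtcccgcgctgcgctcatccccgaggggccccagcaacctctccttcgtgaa
Cdkn1b, chr6:134920151-134920450, plus strand: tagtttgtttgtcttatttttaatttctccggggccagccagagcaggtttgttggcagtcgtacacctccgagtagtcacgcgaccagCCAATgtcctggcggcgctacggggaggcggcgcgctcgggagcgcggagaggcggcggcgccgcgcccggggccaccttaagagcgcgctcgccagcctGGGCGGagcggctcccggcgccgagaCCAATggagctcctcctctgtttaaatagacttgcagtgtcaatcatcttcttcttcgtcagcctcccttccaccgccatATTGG

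The Cdk4 promoter held 4 E-boxes, whose first bases lay at -172, -118, -98 and -11 relative to the start. Of 32851 RefSeq mouse promoters of the same length, 7.15% held at least 1 E-box and 8 (0.0244%) held 4 or more. Cdk6, the other kinase gene, held 1 E-box, at -220. Cdkn1b held 0 E-boxes, 3 CCAAT boxes and 1 Sp1 match, motifs found in 37.4% and 35.7% of all promoters. Among the 9 measured genes, 6 have an entry (Cdkn1b, Cdkn2c, Cdkn2d, Ccnd3, Cdk4 and Cdk6), with a second start for Cdkn2c and Ccnd3, and the second Cdkn2c promoter held 1 E-box. The other motifs searched were E2F (TTTCCCGC, TTTGGCGC, TTTCGCGC or TTTGCCGC, in 2.26% of all promoters), the TATA box with the letters TATAAA (13.6%), the TCF motif with CTTTGAT in one form and CTTTGAA in the other (8.65% held either), and the FOXO motif GTAAACA (3.65%). None of the 6 genes held an E2F match, Cdk6 held 1 TATA match, Cdk4 held 1 TCF match and Ccnd3 held 1 FOXO match. Sp1 matches were not particular to Cdkn1b: Cdk4 held 3, Cdkn2d 5, the first Cdkn2c promoter 4 and each Ccnd3 promoter 2. Those of Cdk4 are not in capitals above. Cdkn2d and the second promoters of Cdkn2c and Ccnd3 each held 1 CCAAT box, and Cdk6 held 0 of either motif. Both strands were searched, CACGTG reads the same on both and was counted once, and overlapping matches of GGGCGG were each counted. The motifs were chosen with the expression values known, and a match of letters says nothing on whether a factor binds there.

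Of the 9 measured genes, 4 were lower in Axin2+/GFP+ cells than in Axin2-/GFP- cells (Cdk4, Ccnd2, Cdkn1b and Cdk6), 0 were higher and 5 were not called, at a limma p adjusted over all 19938 genes of under 0.05. At an unadjusted p under 0.05, the counts were likewise 0 higher and 4 lower. Over all genes, 4.64% were called higher and 11.4% were called lower at the adjusted p, and 16.3% were higher and 17.6% lower at the unadjusted p. All 9 genes lay in signal ranges with larger shares called lower at the adjusted p. These shares were 20.6% at a mean log2 value between 3 and 5 (5 of the genes) and 36.1% between 5 and 7 (4 of the genes). The median log2 change of the 9 genes was -0.40, against 0.14 over all genes, with a negative change in 7 and a positive change in 2. In 5 genes every Axin2+/GFP+ sample lay below every Axin2-/GFP- sample, and in 0 genes above, where over all genes 17.8% did not overlap in the lower direction and 23.1% in the higher direction. Values are log2 array values, so that 1 unit is a doubling, and a change is the mean in Axin2+/GFP+ cells minus the mean in Axin2-/GFP- cells. Array values of different genes come from different probes and were not compared as levels.

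**Figure D1:**
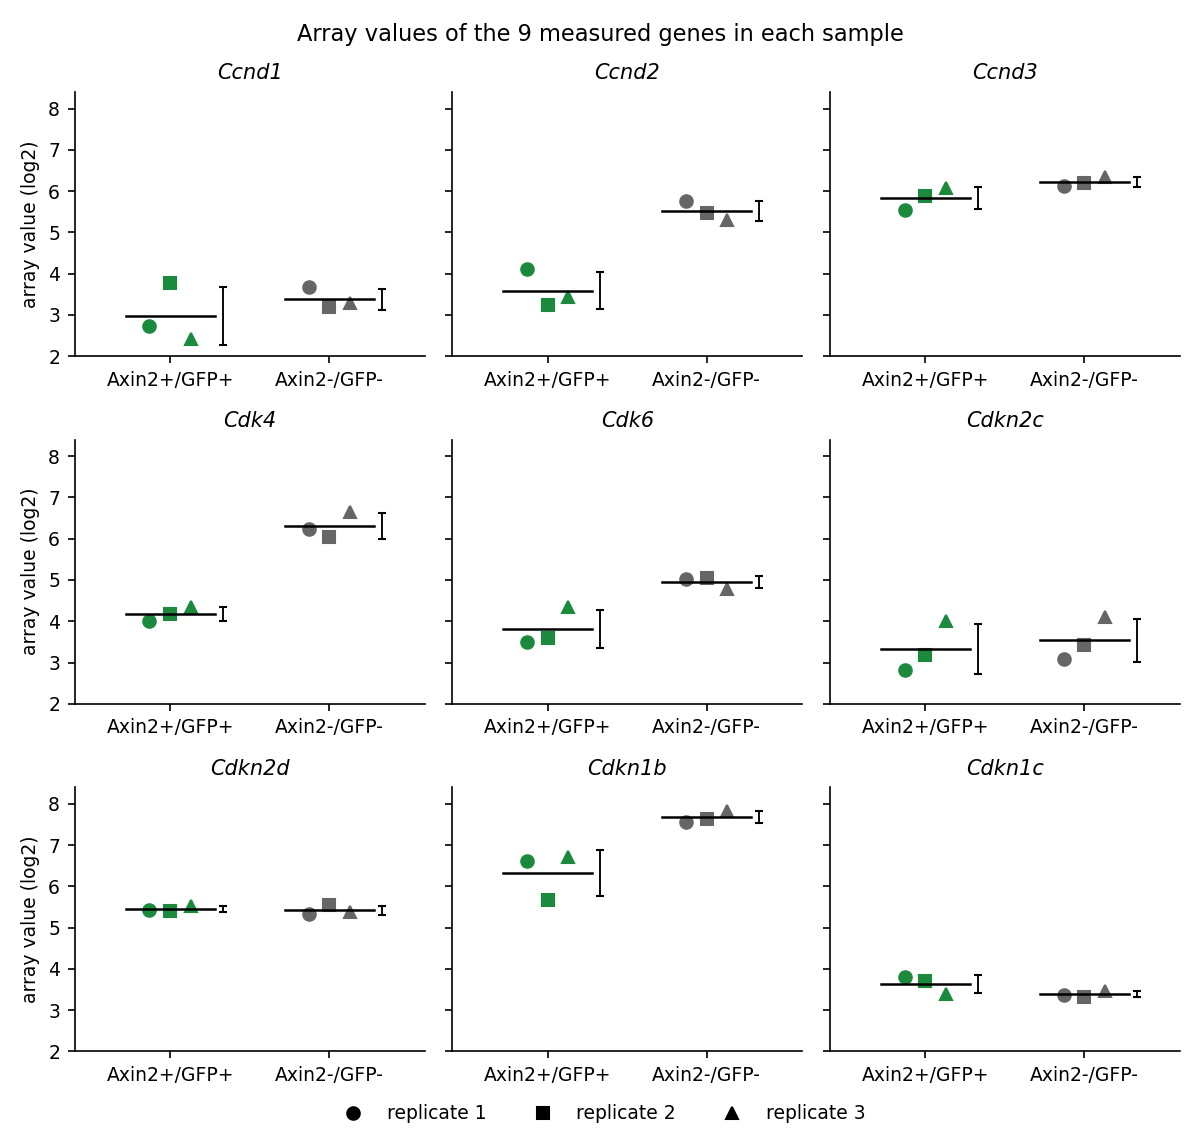
Log2 array value (vertical axis) of each of the 9 measured genes in the 3 Axin2+/GFP+ samples (green, left) and the 3 Axin2-/GFP- samples (grey, right). Marker shape gives the replicate number, horizontal lines are group means and vertical bars show 1 SD to each side of the mean; the groups lie apart in Ccnd2, Cdk4, Cdk6 and Cdkn1b, and by only 0.04 in Ccnd3.

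The 3 D-cyclins did not change alike. Ccnd2, a D-cyclin that B cells use, had array values of 4.11, 3.24 and 3.42 in Axin2+/GFP+ cells, against 5.77, 5.48 and 5.31 in Axin2-/GFP- cells. The groups lay 1.2 apart at their closest samples. The means were 3.59 ± 0.46 in Axin2+/GFP+ cells and 5.52 ± 0.23 in Axin2-/GFP- cells (SD, n = 3 each), a log2 change of -1.93 (95% interval -2.50 to -1.35, limma adjusted p = 0.0019), or 3.80-fold lower, and 1.63% of all genes fell further.

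Ccnd1, the D-cyclin most used by mesenchymal and epithelial cells and a known target of Wnt signalling, had values of 2.73, 3.78 and 2.43 in Axin2+/GFP+ cells, against 3.67, 3.19 and 3.28 in Axin2-/GFP- cells. Axin2+/GFP+ replicate 2 was the highest of all 6 samples and the other 2 Axin2+/GFP+ samples the lowest, so the groups overlapped. The log2 change of -0.40 (95% interval -1.16 to 0.35) was not called (limma adjusted p = 0.404), and when 1 sample was left out it ranged from -0.80 (without Axin2+/GFP+ replicate 2, limma adjusted p = 0.053) to -0.13 (without Axin2+/GFP+ replicate 3, 0.803). The Ccnd1 feature was near low signal: 5.19% of the 1194 olfactory or vomeronasal receptor genes reached its level in Axin2+/GFP+ cells, and 1.09% in Axin2-/GFP- cells.

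Ccnd3, the most widely expressed D-cyclin, had values of 5.55, 5.87 and 6.08 in Axin2+/GFP+ cells, against 6.11, 6.19 and 6.35 in Axin2-/GFP- cells. Every Axin2+/GFP+ sample was lower, with 0.04 between the closest samples. The log2 change of -0.39 (95% interval -0.82 to 0.05) was not called (limma adjusted p = 0.187), and its sign depended on the scaling, with 0.06 after quantile normalization and 0.15 after cyclic loess.

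Both kinase genes fell. Cdk4 had values of 4.0, 4.18 and 4.35 in Axin2+/GFP+ cells, against 6.25, 6.03 and 6.66 in Axin2-/GFP- cells. This was the widest gap of the 9 genes, with 1.69 between the closest samples of the groups. The means were 4.17 ± 0.17 in Axin2+/GFP+ cells and 6.31 ± 0.32 in Axin2-/GFP- cells (SD, n = 3 each), a log2 change of -2.14 (SE 0.21, 95% interval -2.61 to -1.66, limma adjusted p = 0.00054), or 4.4-fold lower, and 1.09% of all genes fell further. Cdk4 was called lower in 16 of 16 alternative analyses, with changes between -2.46 and -1.69. These share the same samples, and several leave the change itself as it was.

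Cdk6, the kinase prominent in blood cells, had values of 3.51, 3.58 and 4.34 in Axin2+/GFP+ cells, against 5.02, 5.06 and 4.78 in Axin2-/GFP- cells. Axin2+/GFP+ replicate 3 came closest to the other group and was still 0.44 below it. The means were 3.81 ± 0.46 in Axin2+/GFP+ cells and 4.95 ± 0.15 in Axin2-/GFP- cells (SD, n = 3 each), a log2 change of -1.14 (SE 0.24, limma adjusted p = 0.016), or 2.21-fold lower. This call was lost without Axin2-/GFP- replicate 1 or 2 (limma adjusted p = 0.062 and 0.063), after quantile normalization (0.103) and after cyclic loess (0.061).

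By the mean absolute difference of centred values over the 6 samples, the genes whose pattern was most like that of Cdk4 were Gpat3 (0.099), Aff3 (0.10) and Cct4 (0.117). Their log2 changes were -1.96, -2.18 and -2.02.

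Neither INK4 gene was called. Cdkn2d had values of 5.42, 5.41 and 5.52 in Axin2+/GFP+ cells, against 5.33, 5.54 and 5.38 in Axin2-/GFP- cells. The 6 samples lay within 0.21 of each other and the groups overlapped. The log2 change was 0.03 (95% interval -0.33 to 0.40, limma adjusted p = 0.889), which leaves room for a difference of either sign up to these bounds. With the samples centred on the receptor genes it was -0.29, and after cyclic loess 0.50.

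Cdkn2c had values of 2.81, 3.19 and 4.0 in Axin2+/GFP+ cells, against 3.09, 3.43 and 4.11 in Axin2-/GFP- cells. The spread within each population, 1.19 in Axin2+/GFP+ cells and 1.02 in Axin2-/GFP- cells, was several times the change of -0.21 (95% interval -1.0 to 0.58, limma adjusted p = 0.678). Replicate 3 was the highest and replicate 1 the lowest in both populations, but the numbers do not pair the samples over all genes, as given in the closing section.

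Of the 2 measured Cip/Kip genes, 1 was lower and 1 was not called. Cdkn1b, which encodes p27, had values of 6.60, 5.68 and 6.70 in Axin2+/GFP+ cells, against 7.56, 7.62 and 7.83 in Axin2-/GFP- cells. Every Axin2+/GFP+ sample was lower, by at least 0.86, and Axin2+/GFP+ replicate 2 was lowest. The means were 6.33 ± 0.56 in Axin2+/GFP+ cells and 7.67 ± 0.14 in Axin2-/GFP- cells (SD, n = 3 each), a log2 change of -1.34 (SE 0.27, limma adjusted p = 0.013), or 2.54-fold lower.

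Cdkn1b is the 1 gene of the 9 with a second feature, which read 5.73, 5.19 and 6.13 in Axin2+/GFP+ cells, against 6.66, 6.66 and 6.57 in Axin2-/GFP- cells. Again the groups did not overlap and Axin2+/GFP+ replicate 2 was lowest. The change of this feature was -0.95, which was not called when adjusted over all features (limma adjusted p = 0.071). On that scale the brighter feature had a limma adjusted p of 0.042. With the mean of both features Cdkn1b changed by -1.15 (limma adjusted p = 0.017). The call on Cdkn1b was lost without Axin2-/GFP- replicate 3 (limma adjusted p = 0.054), after quantile normalization (change -0.92, 0.076) and after cyclic loess (change -0.72, 0.139).

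Cdkn1c, which encodes p57, had values of 3.81, 3.70 and 3.39 in Axin2+/GFP+ cells, against 3.37, 3.33 and 3.47 in Axin2-/GFP- cells. Axin2+/GFP+ replicates 1 and 2 were the highest of the 6 samples, and replicate 3 lay inside the range of the Axin2-/GFP- samples. The log2 change of 0.24 was the highest of the 9 genes but was not called (95% interval -0.16 to 0.64, limma adjusted p = 0.349), and with the samples centred on the receptor genes it was -0.08. The genes most like it over the 6 samples were Ccdc83, Sntn and Klrb1-ps1, at mean absolute differences of 0.029, 0.035 and 0.035, none of which was called.

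**Figure D2:**
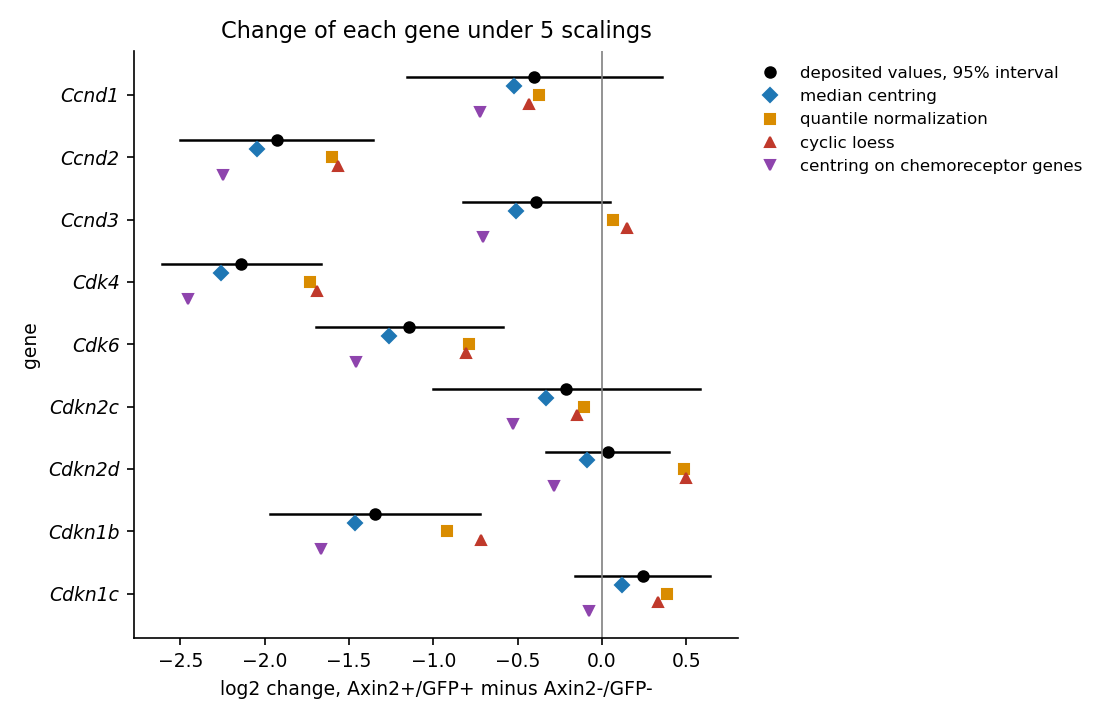
Log2 change (horizontal axis, Axin2+/GFP+ minus Axin2-/GFP-) of each of the 9 genes from the deposited values with its 95% interval (black) and after 4 further scalings (coloured). Cdk4 and Ccnd2 lie well below 0 under all 5, while Ccnd3, Cdkn2d and Cdkn1c fall on either side of 0.

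Because the probes of related genes differ in brightness, the pairs were set against each other within each sample, and only the shift of this difference between the populations was read. Of 8 planned pairs, 6 could be formed without Cdkn1a. The populations did not overlap in 4 of them, each of which holds a gene already called lower, and no share over pairs of other genes was computed, so this count is a description. With 3 samples against 3, the smallest p an exact permutation test can give is 0.1, so none of these shifts could pass a threshold of 0.05.

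Among the D-cyclins, the differences that hold Ccnd2 shifted. Ccnd1 lay near low signal in both populations (means of 2.98 in Axin2+/GFP+ cells and 3.38 in Axin2-/GFP- cells). Its feature thus had little room for a fall as large as the -1.93 of Ccnd2. A shift towards Ccnd1 therefore does not show that Ccnd1 RNA held. The log2 difference Ccnd1 minus Ccnd2 was -1.38, 0.53 and -1.0 in Axin2+/GFP+ cells, against -2.10, -2.29 and -2.03 in Axin2-/GFP- cells, a shift of 1.53 (two-sided exact permutation p = 0.1) towards Ccnd1. Ccnd2 minus Ccnd3 was -1.44, -2.63 and -2.65 in Axin2+/GFP+ cells, against -0.34, -0.71 and -1.04 in Axin2-/GFP- cells, a shift of -1.54 (two-sided exact permutation p = 0.1) away from Ccnd2. Ccnd1 minus Ccnd3 shifted by -0.01 (two-sided exact permutation p = 1).

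The measured fall was larger in Cdk4 than in Cdk6, whose call did not hold under every alternative. Cdk6 minus Cdk4 was -0.49, -0.59 and -0.01 in Axin2+/GFP+ cells, against -1.23, -0.97 and -1.88 in Axin2-/GFP- cells. This was a shift of 1.0 (two-sided exact permutation p = 0.1). The Cdk6 feature lay at lower signal (mean 4.95 in Axin2-/GFP- cells) than that of Cdk4 (6.31), with less room to fall. Among the inhibitors, Cdkn1c minus Cdkn1b was -2.80, -1.98 and -3.31 in Axin2+/GFP+ cells, against -4.19, -4.29 and -4.36 in Axin2-/GFP- cells. The shift of 1.59 (two-sided exact permutation p = 0.1) ran towards Cdkn1c. It joined changes of 0.24 in Cdkn1c and -1.34 in Cdkn1b, and after cyclic loess it was 1.05. The Cdkn1c feature lay at lower signal (mean 3.39 in Axin2-/GFP- cells) than that of Cdkn1b (7.67), with less room to fall. Cdkn2d minus Cdkn2c shifted by 0.24, with overlapping populations (two-sided exact permutation p = 0.6). Without Axin2+/GFP+ replicate 2 the shift of Ccnd1 minus Ccnd2 was 0.95.

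**Figure D3:**
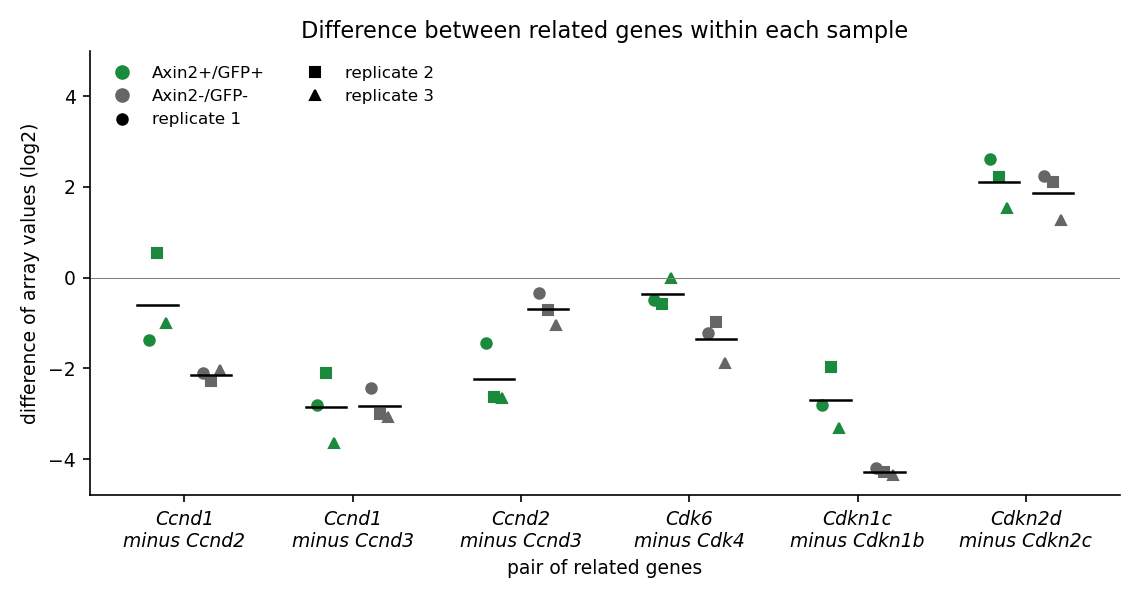
Difference of the log2 array values of 2 related genes within each sample (vertical axis) for 6 pairs, in Axin2+/GFP+ cells (green, left of each pair) and Axin2-/GFP- cells (grey, right), with marker shape for the replicate number and lines for group means. Only the step between green and grey is read, such as the 1.59 of Cdkn1c minus Cdkn1b, and it is limited where a gene of the pair has low signal.

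Changes over all genes varied with their signal. Upper quartiles of the samples lay at 3.72 to 3.76 in Axin2+/GFP+ cells and 3.97 to 4.0 in Axin2-/GFP- cells, and the receptor genes had a median change of 0.30. Among 11075 genes with a mean log2 value under 3, the median change was 0.25 and 1.51% were called lower. Among 7144 genes between 3 and 5, which include Ccnd1, Ccnd2, Cdk6, Cdkn2c and Cdkn1c, the median change was -0.19 and 20.6% were called lower. Among 1463 genes between 5 and 7, which include Ccnd3, Cdk4, Cdkn2d and Cdkn1b, the median change was -0.57 and 36.1% were called lower. Ccnd3 and Cdkn2d lay above the median change of their signal range, and Cdk4 and Cdkn1b lay below it.

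**Figure D4:**
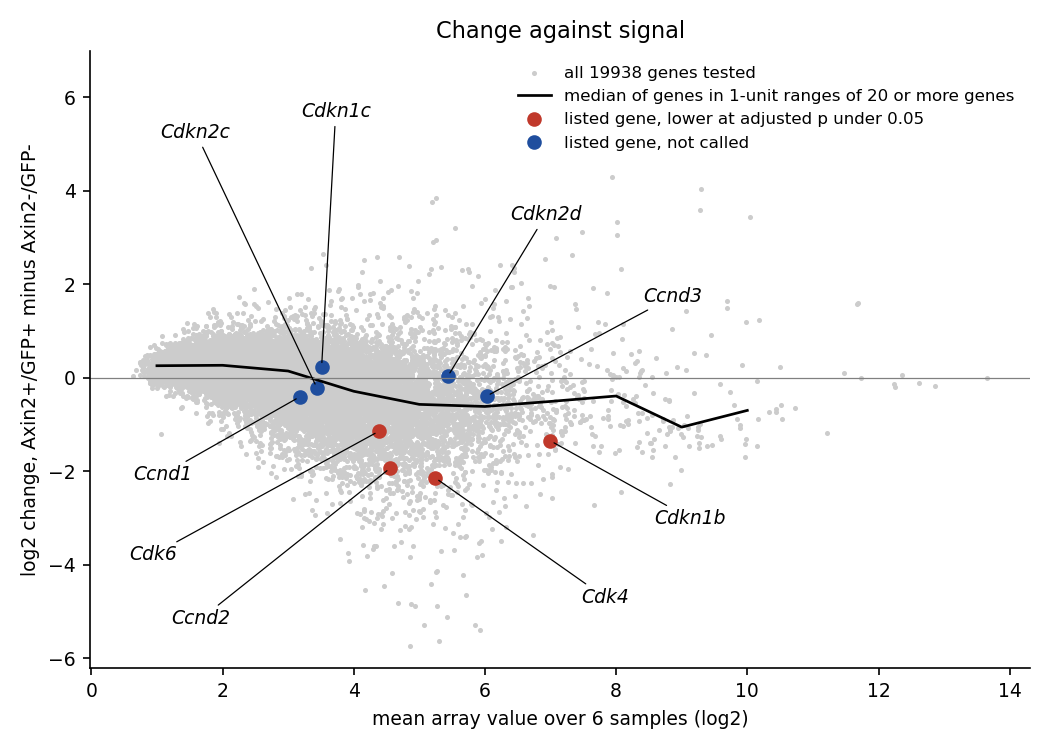
Log2 change (vertical axis, Axin2+/GFP+ minus Axin2-/GFP-) against the mean log2 array value over 6 samples (horizontal axis) for all 19938 genes tested (grey), with the running median (black line), the 4 genes called lower (red) and the 5 not called (blue). The median drops below 0 as the signal rises, and the 4 red points lie below it.

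The substrate of the D-cyclin kinases fell with them. Rb1, which encodes Rb, had values of 3.18, 2.85 and 3.31 in Axin2+/GFP+ cells, against 5.37, 4.90 and 5.24 in Axin2-/GFP- cells, with a log2 change of -2.06 (limma adjusted p = 0.00057). Of 23 measured partners and downstream genes of G1/S, 0 rose, 4 fell and 19 were not called, with a median change of -0.24. These figures lie near those of all genes with a mean log2 value between 3 and 5, of which 20.6% were called lower at a median change of -0.19. The other 3 that fell were Tfdp2, a DNA-binding partner of the E2F factors (-1.61, limma adjusted p = 0.0015), Cks1b, which helps the SKP2 ligase to mark p27 for destruction (-0.87, 0.039), and E2f1 (-0.67, 0.040). Skp2 itself changed by -0.14 and was not called. Cdk2, the kinase that p27 blocks, changed by -0.52 (limma adjusted p = 0.124). The INK4 genes Cdkn2a and Cdkn2b, which are best known from senescent cells, changed by 0.40 and 0.45 (limma adjusted p = 0.156 and 0.169), within the middle range of the receptor genes (quartiles of change 0.15 and 0.48), and Cdkn2a lay at their level in both populations.

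Of 10 measured genes that assemble the kinases or turn over D-cyclins, 0 rose, 4 fell and 6 were not called, with a median change of -0.44. The 4 include Cdk7, from which no change is read. Over all genes 11.4% were called lower, and 20.6% of those with a mean log2 value between 3 and 5. Ambra1, which directs D-cyclins to destruction, had values of 3.93, 3.88 and 3.94 in Axin2+/GFP+ cells, against 4.81, 4.88 and 4.82 in Axin2-/GFP- cells, with a log2 change of -0.92 (limma adjusted p = 0.0055). The replicates of each population lay close together and the populations did not overlap. Hsp90aa1, the chaperone that folds Cdk4 together with Cdc37, changed by -0.89 (limma adjusted p = 0.019), whereas Cdc37 changed by -0.33 (0.229). Gsk3b, a kinase that acts in Wnt signalling and on cyclin D1, changed by -1.0 (0.027). The fourth gene called, Cdk7, the kinase that activates other CDKs, lay at the level of the receptor genes in both populations (64.5% of them at least as bright in Axin2+/GFP+ cells and 8.96% in Axin2-/GFP- cells), so no change is read from it.

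Of 8 measured regulators of the inhibitor genes, 1 fell and 7 were not called, with a median change of -0.20. This is near the 11.4% called lower over all genes. Foxo1, a forkhead factor known to raise Cdkn1b transcription, had values of 4.24, 4.51 and 3.86 in Axin2+/GFP+ cells, against 5.69, 6.16 and 6.58 in Axin2-/GFP- cells, with a log2 change of -1.94 (limma adjusted p = 0.0023). Myc, which is known to raise Cdk4 and Ccnd2 and to repress Cdkn1a, had values of 3.47, 4.62 and 5.73 in Axin2+/GFP+ cells, against 6.30, 5.88 and 6.12 in Axin2-/GFP- cells. Myc was lower in each Axin2+/GFP+ sample but spread widely there, and its change of -1.49 was not called (limma adjusted p = 0.065). Zbtb17, the Miz1 factor through which Myc represses inhibitor genes, changed by -0.27 (0.409) and Klf6, an activator of Cdkn1a, by 0.34 (0.427).

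Cdkn1a, the gene without a value, is the best known target of p53, so other p53 targets were counted. Of 17 measured, 2 rose, 3 fell and 12 were not called, with a median change of -0.06. Over all genes 4.64% were called higher and 11.4% lower, and 20.6% were called lower among genes with a mean log2 value between 3 and 5. Gadd45a, a stress-induced growth arrest gene, was higher by 1.82 (limma adjusted p = 0.0035). The other gene that rose, Zmat3 (0.82, 0.045), lay at the level of the receptor genes in both populations. There 9.30% of them were at least as bright in Axin2+/GFP+ cells and 23.4% in Axin2-/GFP- cells, so no change is read from Zmat3. Trp53inp1, a stress-induced p53 cofactor, was the most lowered, with values of 4.23, 4.24 and 4.08 in Axin2+/GFP+ cells, against 7.19, 6.71 and 7.58 in Axin2-/GFP- cells (change -2.97, limma adjusted p = 0.00022). Mdm2, the ligase that removes p53, changed by -1.29 (0.0054) and Sesn1, a stress-induced inhibitor of growth signalling, by -1.34 (0.0054). The calls of this list thus ran both ways.

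Of 23 measured S and M phase genes, 0 rose, 5 fell and 18 were not called, with a median change of -0.39. Over all genes 11.4% were called lower. The share was 20.6% among genes with a mean log2 value between 3 and 5, and 36.1% between 5 and 7. The count of this list is no larger than genes of like signal showed. Pcna, the DNA polymerase clamp, had values of 6.87, 6.91 and 7.06 in Axin2+/GFP+ cells, against 8.67, 8.37 and 8.57 in Axin2-/GFP- cells, with a log2 change of -1.59 (limma adjusted p = 0.00073). The 5 that fell were Pcna, the helicase subunits Mcm4 (-0.87), Mcm6 (-0.93) and Mcm7 (-1.14), and the ribonucleotide reductase subunit Rrm2 (-1.02). Other genes of DNA replication were not called, among them Mcm2 (-0.92, limma adjusted p = 0.098), Mcm3 (-0.60, 0.101), Mcm5 (-0.05, 0.862) and Tyms (-0.39, 0.151), nor were genes of mitosis or proliferation such as Mki67 (-0.44, limma adjusted p = 0.385), Plk1 (0.05, 0.894) and Cdk1 (0.14, 0.797). After quantile normalization the called lower counts of the lists were 2 for the G1/S partners, 1 for kinase assembly and D-cyclin turnover, 1 for the regulators, 3 for the p53 targets and 1 for the S and M phase genes, and after cyclic loess they were 2, 2, 1, 3 and 1. For kinase assembly and D-cyclin turnover, the call left after quantile normalization was Cdk7, at receptor level. After cyclic loess the calls left were Cdk7 and Ambra1. Hsp90aa1 and Gsk3b were lost under both. With genes left out whose mean was under 4 in both populations, the median change was -0.57 over all genes. It was -0.48 for the G1/S partners, -0.72 for kinase assembly and D-cyclin turnover, -0.25 for the regulators and -1.17 for the p53 targets. For the S and M phase genes it was -0.52, and for the D-cyclin, kinase and inhibitor genes -1.24. Ccnd2 and Cdk6 passed this filter only through Axin2-/GFP- cells, where they were higher. The filter thus partly sets these medians, and nothing is read from them.

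**Figure D5:**
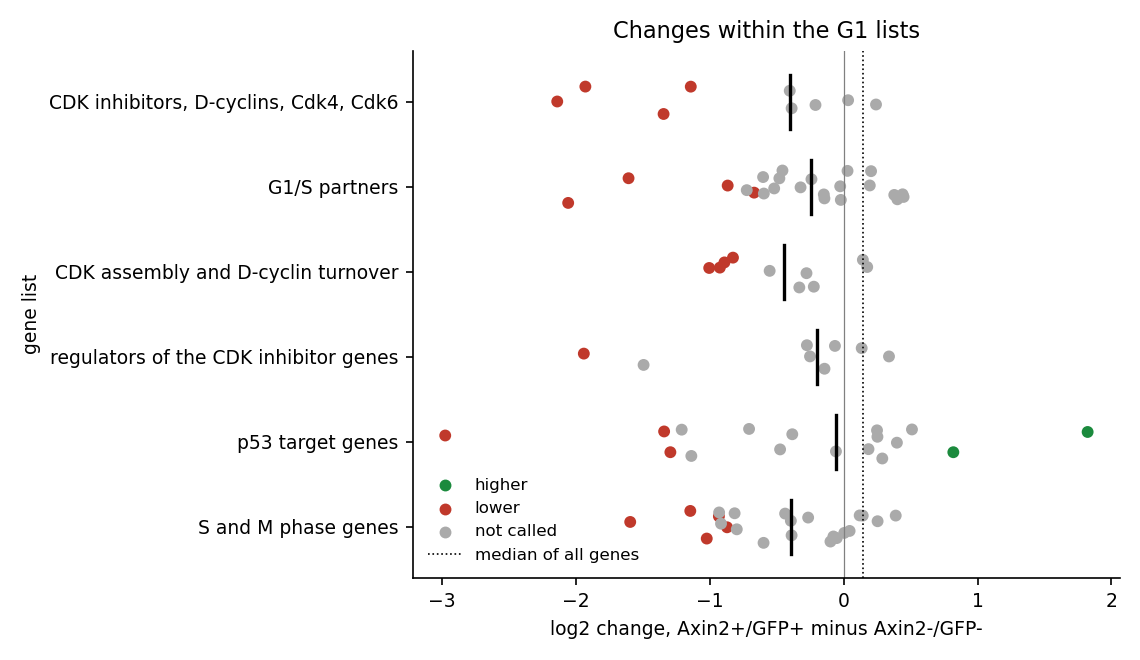
Log2 change (horizontal axis, Axin2+/GFP+ minus Axin2-/GFP-) of each measured gene in the 6 lists (rows), coloured by call (green higher, red lower, grey not called), with a black bar at each list's median and a dotted line at 0.14, the median of all genes. The list medians lie below this line. The median over all genes varies with signal, at 0.25 for mean values under 3 and -0.19 between 3 and 5.

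Each sample is a bulk of sorted cells, in which fewer cells of a type and less RNA per cell cannot be told apart, and the populations also differed in genes of blood cells. Of 12 markers of the B-lineage that were measured, 12 fell in Axin2+/GFP+ cells, with a median change of -4.40, and their mean level per sample was 2.93 to 3.11 in Axin2+/GFP+ cells and 6.90 to 7.37 in Axin2-/GFP- cells. Of these 12, 5 were at the level of the receptor genes (below the 95th percentile of that set) in Axin2+/GFP+ cells and 0 in Axin2-/GFP- cells. Cd79b, which signals for the B-cell receptor, differed by -5.28. Ebf1, the factor that sets the B-lineage, averaged 1.99 in Axin2+/GFP+ cells, where 37.4% of receptor genes were at least as bright, and 7.72 in Axin2-/GFP- cells, so that only a bound on its fall can be had. Of 15 neutrophil-lineage markers, 14 were higher in Axin2+/GFP+ cells, with a median change of 2.58 and mean levels of 8.38 to 8.61 in Axin2+/GFP+ cells and 5.18 to 6.67 in Axin2-/GFP- cells. Fcnb and Ltf, proteins of neutrophil granules, changed by 3.86 and 4.30. The part of these cell types in the lower Ccnd2, Cdk4, Cdk6 and Cdkn1b was not tested.

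The other marker lists had fewer genes called, and many of their genes lay at low signal. Of 12 mesenchyme and osteoblast markers, 4 were higher and 0 lower, with a median change of 0.58 and mean levels of 5.14 to 5.31 in Axin2+/GFP+ cells and 4.34 to 4.52 in Axin2-/GFP- cells, and the collagen genes Col1a2 and Col3a1 changed by 1.72 and 1.95. Sp7, an osteoblast factor, and the mesenchymal genes Pdgfra and Twist2 lay at the level of the receptor genes in both populations. Of 9 macrophage markers 0 were higher and 1 was lower, of 6 erythroid markers 1 was higher and 1 lower, of 7 T cell markers 0 were higher and 1 was lower, and of 7 endothelial markers 0 were higher and 1 was lower. Over all genes 4.64% were called higher and 11.4% lower. In each population 4 macrophage, 4 T cell and 5 endothelial markers lay at receptor level. So did 1 erythroid marker in Axin2+/GFP+ cells and 3 in Axin2-/GFP- cells. Few calls in these lists thus do not show that the cell types were equally present. The markers lowered in these lists were Cd68 (-1.49), Alas2 (-1.68), Il7r (-3.71, a gene that B-cell precursors also express) and Pecam1 (-2.23), and the erythroid marker that rose was Klf1 (0.74). The macrophage marker Csf1r (-0.60) and the endothelial marker Cldn5 (0.71) were not called, nor was Cd4 (0.14), which lay at the level of the receptor genes.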

How the data were processed

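The authors hybridised total RNA of each sorted sample to a whole-transcript array and deposited 1 log2 value for each feature. RMA and R 3.2.1 are named by the submitters' processing notes, without saying which background step, summary level or normalization between arrays was used. The log2 scale was taken from the range of the values. All 6 columns were used, and 0 were left unmatched to a sample. Array number limits the precision, since array values carry no read depth.

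Of 35557 features, 21789 have 1 symbol in the platform's annotation, 1621 have several and 12147 have none here, and 21698 were matched to RefSeq by gene identifier. The 999 genes with several features were read by the brightest. Each of 19938 genes went through lmFit and eBayes of limma 3.58.1 (R 4.3.3; 2 groups, Benjamini-Hochberg adjustment, threshold 0.05), after a check on simulated data. Related genes were compared within samples by a two-sided exact permutation test. Nothing in the labels beyond "biological" replicates separates the pools. A limma p-value here sets a group difference against the spread among these samples, a spread estimated partly from all genes.

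The members, the gene lists and the motifs were chosen with earlier results of these data known. Named are all members, from each pathway list the 4 genes with the smallest p, from each cell type list 2, and the 3 genes most like the members with the largest rise and fall; any other gene named was chosen after its values were seen. Alternatives were another variance fit (limma with an intensity trend), the methods' t-test, a replicate block, centring on the median, quantile normalization, cyclic loess, centring on chemoreceptor genes, a filter on dim genes (mean log2 value of at least 4 in either population), the mean of a gene's features and leaving out each sample.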

Additional observations from a re-analysis of the deposited data

How the results depend on the processing

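Cdk4 was called lower in 16 of 16 alternative analyses and Ccnd2 in 15 of 16, the exception being the methods' t-test with Benjamini-Hochberg adjustment (adjusted p = 0.0587). Cdkn1b was called in 12 of 16 and Cdk6 in 11 of 16. The alternatives overlap, so these counts are a description. Ccnd2 and Cdk6 passed the filter on dim genes only through Axin2-/GFP- cells, where they were higher. For Cdk4, Ccnd2 and Cdk6, which have 1 feature each, the mean of a gene's features repeats the reported change. The methods' t-test is counted both unadjusted and adjusted. The count of the 9 genes called lower, 4 as reported, was 1 with the methods' t-test after Benjamini-Hochberg adjustment, 2 after quantile normalization and 2 after cyclic loess, and 3 to 4 when any 1 sample was left out. The causes were not tested. Ccnd3 changed by 0.064 after quantile normalization and by 0.15 after cyclic loess, and was called lower (-0.71, limma adjusted p = 0.0386) only with the samples centred on chemoreceptor genes. With that centring, Cdkn1c changed by -0.077 and Cdkn2d by -0.29, and with median centring Cdkn2d changed by -0.086. With any 1 sample left out, Cdkn2c ranged over -0.54 to 0.075 and Cdkn2d over -0.0098 to 0.094.

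Over all genes, 926 were called higher and 2265 lower as reported. The split was 441 higher and 2761 lower with median centring, 210 and 3980 with chemoreceptor centring, 768 and 1266 after quantile normalization and 785 and 1468 after cyclic loess. The methods' t-test called 2952 higher unadjusted, and 211 higher and 518 lower after adjustment. With the filter on dim genes 332 were called higher. With 1 sample left out the counts ranged over 239 to 852 higher and 1376 to 2082 lower, and were lowest without an Axin2-/GFP- sample. The median change of all genes, 0.14, was -0.18 with chemoreceptor centring, so changes under that scaling are relative to it. Samples with the same replicate number did not deviate together (correlations of 0.031, 0.011 and 0.053), and with the replicate number as a block 643 genes were called higher and 2201 lower, 4 of them among the 9 genes.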
